A study of Homo sapiens with 9 samples.

Results

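The 10 genes of the peroxiredoxin and thioredoxin system described here were measured in A673 cells, an established Ewing sarcoma line, after siRNA against LRWD1. They are the peroxiredoxins PRDX1, PRDX2, PRDX3, PRDX4, PRDX5 and PRDX6, the thioredoxins TXN and TXN2, and the thioredoxin reductases TXNRD1 and TXNRD2. They were taken by symbol and make up 10 of the 23368 genes of the deposited count table. All 10 were among the 13648 genes with enough reads to test. The set was proposed because PRDX3 was very low after 1 of the siRNAs, siLRWD1-5. The levels of these genes in that comparison are therefore given as a description, with no test.

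The 9 RNA-seq libraries fall into 3 groups of 3: siLRWD1-5, siLRWD1-6 (a second siRNA against LRWD1) and a scrambled siRNA. Every group received its siRNA at 13 nM with siLentFect by reverse transfection, and RNA was taken 48 h later from 3 independent experiments. All groups were grown in the same medium with Tet-approved serum, Zeocin and blasticidin; whether the cells carry a construct selected by these drugs is not given in the sources used here. LRWD1, which binds the origin recognition complex on chromatin, was the gene targeted, and the series belongs to a viability screen in Ewing sarcoma cells with the EWS-FLI1 fusion. Levels are read counts relative to library size (CPM), scaled by the TMM method.

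Peroxiredoxins are enzymes that reduce hydrogen peroxide and organic peroxides through a reactive cysteine. For PRDX1, PRDX2, PRDX3 and PRDX5 the oxidised cysteine is reduced again by a thioredoxin. The thioredoxin is itself reduced by a thioredoxin reductase with electrons from NADPH, whereas PRDX6 relies on glutathione. The cytosol holds PRDX1, PRDX2, TXN and TXNRD1, the mitochondrial matrix holds PRDX3, TXN2 and TXNRD2, PRDX4 lies in the endoplasmic reticulum, and PRDX5 is found in mitochondria, peroxisomes and cytosol. PRDX3 together with TXN2 and TXNRD2 is known as the main peroxide-reducing chain of mitochondria.

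Libraries held 11971179 to 15674452 counted reads, and the 10 genes together took 0.267% to 0.336% of them. LRWD1 averaged 10.8 ± 0.497 CPM with siLRWD1-5 and 7.74 ± 1.05 CPM with siLRWD1-6, against 51.0 ± 3.13 CPM with the scrambled siRNA (SD, n = 3 each). Of the Ewing sarcoma markers, NKX2-2, NR0B1, STEAP1, PRKCB and FLI1 were expressed in every library; CD99 was listed at 0 in 8 of 9 libraries. All 5 measured markers were called lower with siLRWD1-5 than with the scrambled siRNA (median log2 fold change -0.71), beside 20.3% of all genes. With siLRWD1-6, PRKCB was lower, beside 7.78% of all genes called lower, and the other 4 did not pass the test. Without scrambled replicate 2, 2 were also called higher, beside 15.3% of all genes. Of 10 markers of blood, epithelial, endothelial and liver cells, 9 were too low to test, and KRT18 passed the test in neither comparison with the scrambled siRNA. Scrambled replicate 2 stood apart, with a chi-square per gene of 30.0 and 25.6 against the other scrambled libraries, where every other pair of replicates had 3.09 to 5.71. Calls and counts of the 10 genes that it moved are given with and without it, and so are several counts for other genes.

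PRDX3, the mitochondrial peroxiredoxin, was the lowest-ranked of all 13648 genes after siLRWD1-5. It had 27.2, 26.7 and 30.4 CPM with siLRWD1-5, 199, 192 and 184 CPM with siLRWD1-6, against 252.5, 218 and 237 CPM with the scrambled siRNA. The siLRWD1-5 libraries lay far below all others, and the siLRWD1-6 libraries lay below every scrambled library by a much smaller margin. In reads, these were 431, 361 and 375 with siLRWD1-5, 2859, 2629 and 2173 with siLRWD1-6, against 3996, 2689 and 3066 with the scrambled siRNA. The siLRWD1-5 level was 11.9% of the scrambled level (log2 fold change -3.07, SE 0.0796). For comparison, LRWD1 itself stood at 21.1% of its scrambled level in the same cells. In these bulk samples of a cell line, how PRDX3 RNA was spread over single cells was not measured.

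With siLRWD1-6, PRDX3 fell to 192 ± 7.63 CPM, against 236 ± 17.3 CPM with the scrambled siRNA (SD, n = 3 each). The log2 fold change was -0.30 (SE 0.0712, adjusted p = 0.0151, by the quasi-likelihood test of edgeR, Benjamini-Hochberg over 13648 genes), or 81.4% of the scrambled level. All 3 siLRWD1-6 libraries were below all 3 scrambled libraries. The call was lost without siLRWD1-6 replicate 2 (-0.30, adjusted p = 0.057), without siLRWD1-6 replicate 3 (-0.25, adjusted p = 0.09) and without scrambled replicate 1 (-0.24, adjusted p = 0.058). Between the siRNAs, PRDX3 was 6.83-fold higher with siLRWD1-6 than with siLRWD1-5 (log2 fold change 2.77, SE 0.0791), a description because its siLRWD1-5 level chose it.

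**Figure D1:**
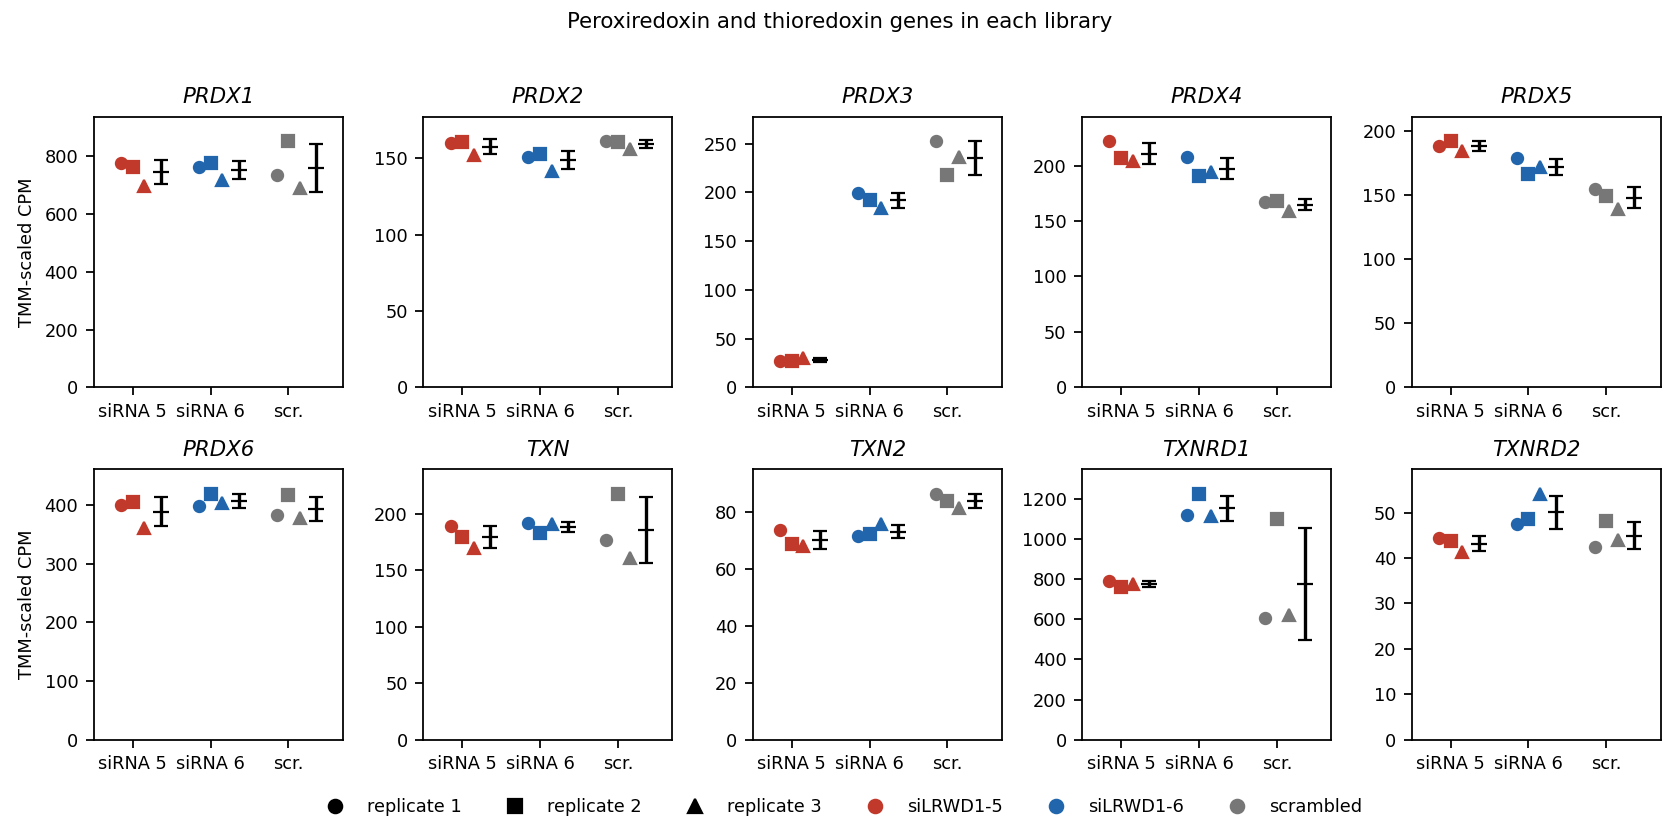
TMM-scaled CPM of each of the 10 genes (y axes from 0) in the siLRWD1-5 (siRNA 5), siLRWD1-6 (siRNA 6) and scrambled (scr.) libraries; marker shapes give the replicate number, and bars give the mean and SD of 3 libraries. PRDX3 lies near 28.1 CPM in siLRWD1-5 libraries, whereas in TXNRD1 scrambled replicate 2 lies at 1099 CPM, near the siLRWD1-6 libraries.

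PRDX4, of the endoplasmic reticulum, and PRDX5, the other peroxiredoxin found in mitochondria, were higher with siLRWD1-6. PRDX4 had 222, 206.5 and 204 CPM with siLRWD1-5, 208, 190.2 and 194 CPM with siLRWD1-6, against 167, 168 and 159 CPM with the scrambled siRNA. Every library of either LRWD1 siRNA was above every scrambled library. PRDX4 rose 1.20-fold with siLRWD1-6 (log2 fold change 0.26, SE 0.06; edgeR adjusted p = 0.0126); its value with siLRWD1-5 was 1.28-fold (log2 fold change 0.36, SE 0.06). The siLRWD1-6 call was lost without siLRWD1-6 replicate 1 (0.22, adjusted p = 0.072).

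PRDX5 had 189, 192 and 185 CPM with siLRWD1-5, 179, 166 and 172 CPM with siLRWD1-6, against 155, 149 and 139 CPM with the scrambled siRNA. The 3 groups did not overlap, with siLRWD1-5 on top and the scrambled siRNA lowest. PRDX5 rose 1.17-fold with siLRWD1-6 (log2 fold change 0.22, SE 0.0596; edgeR adjusted p = 0.0265), and its value with siLRWD1-5 was 1.27-fold (log2 fold change 0.35, SE 0.0596). The siLRWD1-6 call was lost without any 1 of its own replicates (adjusted p = 0.12, 0.052 and 0.057 without replicates 1, 2 and 3), without scrambled replicate 3 (adjusted p = 0.08) and in a fit of only the groups compared (adjusted p = 0.061). Between the siRNAs, PRDX5 was 0.13 lower on the log2 scale with siLRWD1-6 and did not pass the test (adjusted p = 0.101, edgeR).

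The cytosolic peroxiredoxins PRDX1 and PRDX2 and the glutathione-dependent PRDX6 stayed close to their scrambled levels. PRDX1, the most abundant of the 10 per length, averaged 746 ± 41.3 CPM with siLRWD1-5, 753 ± 31.5 CPM with siLRWD1-6 and 760.0 ± 83.4 CPM with the scrambled siRNA (SD, n = 3 each), and its groups overlapped. PRDX2 averaged 158 ± 4.94 CPM with siLRWD1-5, 149 ± 5.92 CPM with siLRWD1-6 and 159 ± 2.85 CPM with the scrambled siRNA. Its siLRWD1-6 libraries lay just below the scrambled ones, and the difference of -0.10 on the log2 scale did not pass the test (adjusted p = 0.256, edgeR). PRDX6 averaged 389 ± 24.0 CPM with siLRWD1-5, 407 ± 11.3 CPM with siLRWD1-6 and 393 ± 20.7 CPM with the scrambled siRNA. The siLRWD1-6 differences of PRDX1 and PRDX6 were -0.01 (SE 0.0788) and 0.05 (SE 0.0631) on the log2 scale and did not pass the test (adjusted p = 0.934 and 0.643, edgeR).

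The 2 thioredoxins differed from each other. TXN2, the mitochondrial thioredoxin that reduces PRDX3, had 73.8, 68.9 and 68.1 CPM with siLRWD1-5, 71.6, 72.3 and 75.8 CPM with siLRWD1-6, against 86.6, 84.0 and 81.3 CPM with the scrambled siRNA. Every LRWD1 siRNA library was below every scrambled library. TXN2 fell with siLRWD1-6 (log2 fold change of -0.20, SE 0.0614; edgeR adjusted p = 0.0471), with 73.2 ± 2.26 CPM against 84.0 ± 2.61 CPM with the scrambled siRNA (SD, n = 3 each). The value with siLRWD1-5 was -0.26 (SE 0.0614). The siLRWD1-6 call lay close to the threshold and was lost with RLE size factors (adjusted p = 0.053), with no filter on low counts (0.089), with a floor of 1 CPM in 3 libraries (0.058), in DESeq2 (0.054), with only the groups compared (0.093) and without any 1 of 5 of the 6 libraries, scrambled replicate 2 excepted. TXN, the cytosolic thioredoxin, had 189, 179 and 169 CPM with siLRWD1-5, 191, 183 and 191 CPM with siLRWD1-6, against 177, 218 and 161 CPM with the scrambled siRNA. The scrambled libraries enclosed both other groups, and the siLRWD1-6 difference was 0.02 on the log2 scale (SE 0.0956, adjusted p = 0.895, edgeR).

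TXNRD1, the cytosolic reductase, had 792, 759 and 774 CPM with siLRWD1-5, 1121, 1226 and 1113 CPM with siLRWD1-6, against 605, 1099 and 622 CPM with the scrambled siRNA. The siLRWD1-6 libraries were above all others, with scrambled replicate 2 close behind the lowest of them. The 1.49-fold difference with siLRWD1-6 did not pass the test (log2 fold change 0.57, SE 0.204; edgeR adjusted p = 0.0953). Without scrambled replicate 2 the log2 fold change was 0.92 (adjusted p = 1.3e-10), and the difference also passed in DESeq2 (0.58, adjusted p = 0.012) and limma-voom (0.63, adjusted p = 0.035) with all libraries. Means with siLRWD1-5 and the scrambled siRNA were 775.0 ± 16.5 and 775.2 ± 280.5 CPM (SD, n = 3 each). The siLRWD1-5 libraries lay between scrambled replicate 2 and the other scrambled libraries, and without that replicate the siLRWD1-5 log2 fold change was 0.34 (SE 0.0576), given as a description.

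TXNRD2, the mitochondrial reductase, had 44.4, 43.8 and 41.2 CPM with siLRWD1-5, 47.5, 48.5 and 54.2 CPM with siLRWD1-6, against 42.5, 48.2 and 44.0 CPM with the scrambled siRNA. The siLRWD1-6 libraries were above every siLRWD1-5 library and overlapped the scrambled ones. Against the scrambled siRNA the log2 fold change of 0.16 did not pass the test (SE 0.0783, adjusted p = 0.201, edgeR), and without scrambled replicate 2 it was 0.22 (adjusted p = 0.037).

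In all, 2 of the 10 genes (PRDX4 and PRDX5) rose and 2 (PRDX3 and TXN2) fell with siLRWD1-6, beside 8.81% of all tested genes called higher and 7.78% called lower. Their median log2 fold change was 0.04, against -0.02 over all 13648 genes. The libraries of the groups did not overlap for 3 higher and 3 lower genes, beside 16.4% and 17.3% of all genes. Without scrambled replicate 2, 4 rose and 2 fell, with TXNRD1 and TXNRD2 added to the higher ones, while the shares of all genes called were 15.3% and 13.3%. With siLRWD1-5, 2 of the 10 were called higher and 2 lower in the same fit, where 18.5% and 20.3% of all genes were called, and their median was -0.02 against -0.01 over all genes. Without scrambled replicate 2, 3 were called higher and 2 lower, where 24% and 25% of all genes were called; nothing is read from these counts. The comparisons of the siRNAs with the scrambled siRNA share their 3 scrambled libraries.

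**Figure D2:**
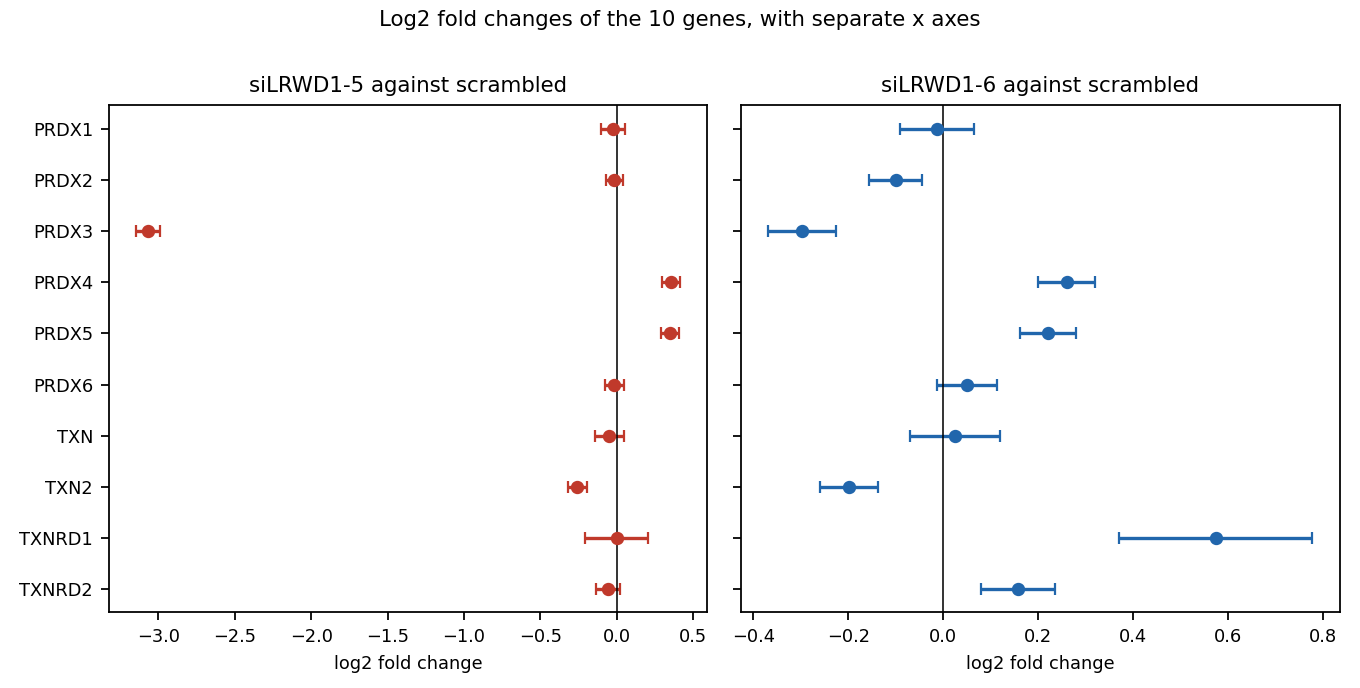
Log2 fold change of each of the 10 genes with siLRWD1-5 (left) and siLRWD1-6 (right) against the scrambled siRNA; points are edgeR estimates, bars are 1 SE, and the x axes differ. PRDX3 lies at -3.07 on the left and -0.30 on the right, and TXNRD1 has the widest bars (SE 0.204).

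The direct comparison of the siRNAs asked which of these genes differed between cells with siLRWD1-6 and cells with siLRWD1-5. Of the 9 genes other than PRDX3, 1 passed the test, beside 22.4% of all genes called higher and 20.9% called lower. TXNRD2 was higher with siLRWD1-6 (log2 fold change 0.21, SE 0.0784; edgeR adjusted p = 0.0461). The TXNRD2 call was lost without any 1 of the 6 libraries (adjusted p = 0.054 to 0.14), with no filter (0.052), in DESeq2 (0.06) and with no scaling beyond library size (0.13). TXNRD1 was 0.57 higher on the log2 scale with siLRWD1-6 and just missed the threshold (SE 0.204, adjusted p = 0.05005, edgeR), although all 3 siLRWD1-6 libraries exceeded all 3 siLRWD1-5 libraries. With the replicate number as a block, TXNRD1 passed (0.56, adjusted p = 0.039). In a fit of only these 2 groups, which leaves scrambled replicate 2 out of the spread, its adjusted p was 7.9e-08. PRDX4, PRDX5 and TXN2, which differed from the scrambled siRNA, had log2 differences of -0.10 (SE 0.0598), -0.13 (SE 0.0594) and 0.06 (SE 0.0617) between the siRNAs.

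PRDX3 was also set against its kin within each library. Its CPM was divided by the geometric mean CPM of PRDX1, PRDX2, PRDX4, PRDX5 and PRDX6, which removes any change shared by the family. The ratio also takes in changes of single kin. PRDX4 and PRDX5 were higher with siLRWD1-6 (log2 fold change 0.26 and 0.22) and with siLRWD1-5 (0.36 and 0.35), which lowers it. The ratio was 9.34%, 9.28% and 11.2% in siLRWD1-5 libraries, 71.3%, 69.8% and 68.8% in siLRWD1-6 libraries, and 97.2%, 80.7% and 96.1% in scrambled libraries. The 3 groups did not overlap. The mean log2 ratio was -0.52 ± 0.0264 with siLRWD1-6 and -0.14 ± 0.15 with the scrambled siRNA (SD, n = 3 each), a difference of -0.38 with p = 0.1 in an exact two-sided permutation test, the smallest p that 3 against 3 libraries can give. The corresponding difference for siLRWD1-5, given without a test, was -3.20.

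**Figure D3:**
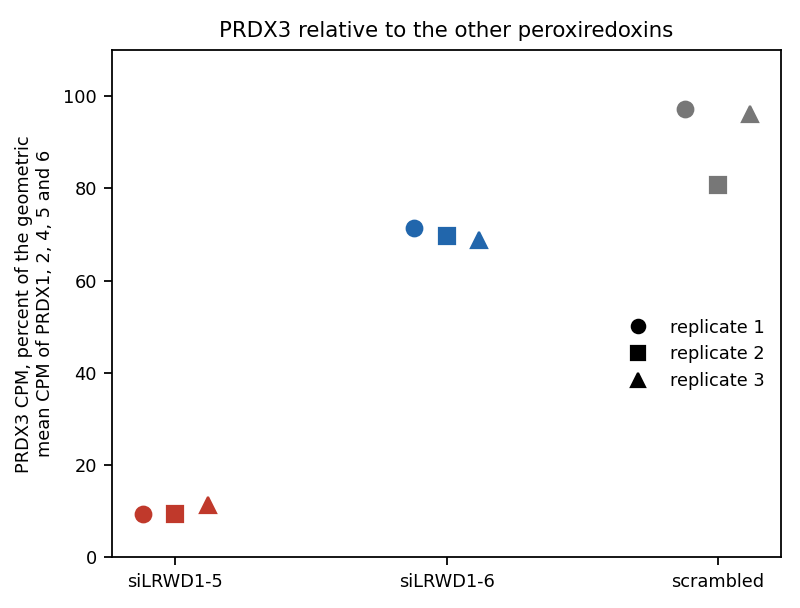
PRDX3 CPM as a percent of the geometric mean CPM of the other 5 peroxiredoxins (y axis, from 0) in each siLRWD1-5, siLRWD1-6 and scrambled library. Scrambled replicate 2 has the lowest ratio of its group, 80.7%, and still lies above every siLRWD1-6 library.

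Levels of different genes can be compared only per length, here as CPM per kb of all annotated exon bases of a gene (GENCODE v29). In scrambled cells the order from the top was PRDX1 (499 ± 54.8 CPM per kb), PRDX6 (166 ± 8.76), PRDX5 (166 ± 9.13), TXN (162 ± 25.6), TXNRD1 (116 ± 41.8), PRDX4 (86.5 ± 2.62), PRDX2 (76.1 ± 1.37), PRDX3 (69.0 ± 5.07), TXN2 (41.0 ± 1.27) and TXNRD2 (5.36 ± 0.357; SD, n = 3 each). PRDX6, PRDX5 and TXN overlapped their neighbours in that order, as did TXN and TXNRD1, and the others were separate. PRDX1 was well above all the others, and PRDX3, TXN2 and TXNRD2, of the mitochondrial matrix, took the last 3 places. By the longest transcript in place of all exon bases, PRDX3 (103.5 ± 7.61) lay above PRDX2 (92.8 ± 1.67). The last 3 places were then those of PRDX2, TXN2 and TXNRD2.

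The place of PRDX3 in that order was lower with siLRWD1-5. PRDX3 had 8.23 ± 0.593 CPM per kb with siLRWD1-5, between TXN2 (34.3 ± 1.52) and TXNRD2 (5.15 ± 0.201), and 56.1 ± 2.23 CPM per kb with siLRWD1-6. Of the summed peroxiredoxin level per kb, PRDX3 made up 0.729%, 0.723% and 0.884% in siLRWD1-5 libraries, 5.26%, 5.09% and 5.09% in siLRWD1-6 libraries, and 6.98%, 5.63% and 6.95% in scrambled libraries. PRDX5, the other peroxiredoxin found in mitochondria, had 211 ± 4.09 CPM per kb with siLRWD1-5, 193 ± 7.02 with siLRWD1-6 and 166 ± 9.13 with the scrambled siRNA. The sum of PRDX3 and PRDX5 was 219, 223 and 216 CPM per kb with siLRWD1-5, 259, 243 and 246 with siLRWD1-6, against 248, 231 and 225 with the scrambled siRNA, so the sums of siLRWD1-5 lay below all others while the other groups overlapped. These are levels of RNA, and the sum says nothing of how much of PRDX5 is in mitochondria. From the top of the 10, PRDX3 was in place 9 with siLRWD1-5 and place 8 with siLRWD1-6 and the scrambled siRNA; by the longest transcript in place of all exon bases, it was in places 10, 8 and 7.

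The genes lie on chromosomes 1 (PRDX1 and PRDX6), 19 (PRDX2), 10 (PRDX3), X (PRDX4), 11 (PRDX5), 9 (TXN), 22 (TXN2 and TXNRD2) and 12 (TXNRD1). The annotation names 4 pseudogenes each after PRDX2 and PRDX3, 7 after TXN and 1 each after PRDX1 and PRDX4, so their counts can miss or share reads with near copies. PRDX1 shares 24.9% of its exon length with MMACHC and PRDX2 shares 14.1% with an antisense locus, both on the opposite strand, and reads of such a pair cannot be told apart without strand. TXNRD2 also shares exon bases with 1 annotated gene, whose share and strand are not given here.

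An siRNA can lower other transcripts that hold a match to its seed in the 3' untranslated region (UTR), as a microRNA does. The siRNA sequences are not in the labels, so words of 7 bases were ranked by how much lower the genes holding them were after siLRWD1-5, with the 10 genes here left out. A 3' UTR of 50 bases or more in GENCODE v29 was at hand for 11728 of the 13648 genes. The top words for siLRWD1-5 among 16105 were ACCTGAA and CCTGAAA, which overlap each other by 6 bases. Genes with CCTGAAA (20.7% of genes) had a median log2 fold change of -0.14, against 0.03 for those without it. PRDX3 was the only gene of the 10 with any of the 3 top words. Its 777-base 3' UTR holds CCTGAAA at bases 375 to 381 and 562 to 568, counted from the base after the stop codon. Both sites are shown 5′ to 3′ in the strand of the mRNA, with the word in capitals.
PRDX3 3' UTR bases 365 to 391: gatcaacggtCCTGAAAttttcatctt
PRDX3 3' UTR bases 552 to 578: atccctcatcCCTGAAAttgagtttat

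Genes were then grouped by copies of CCTGAAA. The word was chosen for low fold changes of the same genes after siLRWD1-5, so the medians by copies are a description and not further evidence. With siLRWD1-5 the median log2 fold change was 0.03 in 9294 genes with no copy, -0.11 in 1900 genes with 1, -0.24 in 413 genes with 2 and -0.32 in 111 genes with 3 or more. With siLRWD1-6 the medians of the same classes were -0.02, -0.00031, 0.04 and 0.0029. The median 3' UTR grew over the classes too, with 1416, 2855, 4624 and 5670 bases, and its part in the medians was not tested. PRDX3, with 2 copies and -3.07, lay far below its class, in which 1 other gene was under -2. Also under -2 were 14 genes with no copy, 15 with 1 copy and 2 with 3 or more. None of the 3 words ranked highest for siLRWD1-6, led by ACATCGT, was in the 3' UTR of any of the 10 genes. Whether siLRWD1-5 acts on PRDX3 through these sites was not tested.

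**Figure D4:**
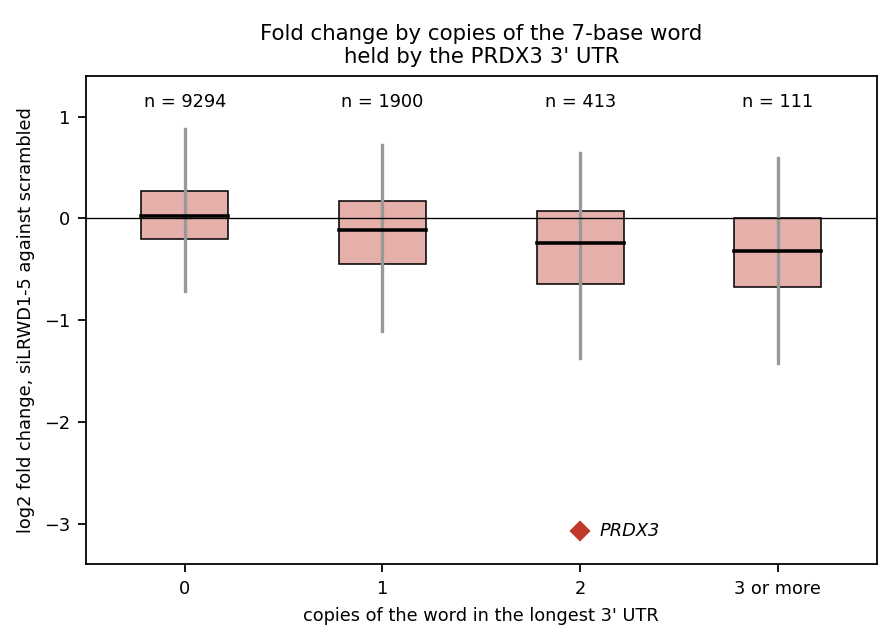
Log2 fold change with siLRWD1-5 against the scrambled siRNA (y axis) by copies of CCTGAAA in the 3' UTR (x axis), with the median, quartiles (box) and 5th to 95th percentiles (line) of genes other than the 10; the diamond is PRDX3. Medians run from 0.03 with no copy to -0.32 with 3 or more copies, and PRDX3 lies at -3.07 in the class with 2 copies.

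The genes most like PRDX3 over the 9 libraries were found among 10898 genes of at least 5 CPM, by the root mean square difference in log2 level from the scrambled mean. They were FAM45B (0.372), CMC2 (0.43), EI24 (0.435), ARL6IP6 (0.453) and GGCT (0.46). CMC2, a mitochondrial protein of cytochrome oxidase assembly, had 7.37, 8.67 and 5.12 CPM with siLRWD1-5, 41.2, 40.2 and 37.9 CPM with siLRWD1-6, against 43.2, 42.5 and 36.6 CPM with the scrambled siRNA. EI24, an endoplasmic reticulum protein of autophagy, had 35.0, 34.7 and 34.0 CPM with siLRWD1-5, 184, 189 and 186 CPM with siLRWD1-6, against 172, 201 and 179 CPM with the scrambled siRNA. Both were low in the siLRWD1-5 libraries alone. FAM45B has a near-identical copy, FAM45A, so its reads are uncertain. The 3' UTR of EI24 held none of the 3 top words for siLRWD1-5, whereas those of CMC2, ARL6IP6 and GGCT held 1 copy of CCTGAAA each. No 3' UTR was at hand for FAM45B. Of the 9 other peroxiredoxin and thioredoxin genes the nearest was TXN2 (1.61), with 2392 genes closer to PRDX3.

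TXNRD1 is known as a target of NRF2, a transcription factor that binds antioxidant response elements. The core of that element, TGACNNNGC on either strand, was looked for in promoter windows of RefSeq (GRCh38.p14) from 250 bases before to 50 bases after each gene start. Windows were given for 7 of the 10 genes, not PRDX1, PRDX6 or TXN2. Only the window listed first for each of these genes was searched. The core was in 1 of these 7 windows, that of TXNRD1, where it stood in 2 places. It was in 13.3% of all 35116 windows, so 1 of 7 is close to the share over all windows. Both places are shown because TXNRD1 had the largest SE of the 10 genes (0.204), with scrambled replicate 2 far from its group. They are printed 5′ to 3′ in the strand of the match, with the core in capitals, and start 99 and 8 bases before the gene start.
TXNRD1 chr12:104215670-104215698, plus strand: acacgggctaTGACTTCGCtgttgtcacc
TXNRD1 chr12:104215761-104215789, minus strand: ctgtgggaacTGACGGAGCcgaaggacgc
A match is a description of the sequence, and no binding was measured.

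Scrambled replicate 2 differed from its group in the same direction at several genes of this kind. TXNRD1 was 1.79-fold and TXN 1.29-fold higher there than in the other scrambled libraries, and 9 of the 10 genes were higher, with PRDX3 lower by 0.17 on the log2 scale. Of those 9, TXN2, PRDX2, PRDX5 and PRDX4 were higher by only 0.0024 to 0.044 on that scale. Of 11 genes listed for NRF2, 9 were higher (median log2 difference 0.37), against 7095 of all 13648 genes tested. That list includes NFE2L2, which encodes NRF2, and KEAP1, its inhibitor. HMOX1, which breaks down haem, had 8.76, 10.4 and 10.2 CPM with siLRWD1-5, 24.9, 23.7 and 29.8 CPM with siLRWD1-6, against 21.1, 55.3 and 19.4 CPM with the scrambled siRNA. SRXN1, the enzyme that repairs over-oxidised peroxiredoxins, had 111, 104 and 108 CPM with siLRWD1-5, 122, 123 and 125.5 CPM with siLRWD1-6, against 83.9, 129.7 and 78.2 CPM with the scrambled siRNA. In the LRWD1 siRNA groups, replicate 2 of TXNRD1 differed from the other replicates by -0.04 with siLRWD1-5 and 0.13 with siLRWD1-6 on the log2 scale.

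Proteins that repair, restrain or use the system were described as a list of 16 genes, all measured. With siLRWD1-6, 2 rose (SESN2 and MSRB3) and 2 fell (TXNIP and RRM2), beside 8.81% and 7.78% of all genes, and the median was 0.04. Without scrambled replicate 2, 3 rose and 3 fell, beside 15.3% and 13.3%. SESN2, a stress protein of the sestrin family, had 16.7, 14.5 and 18.5 CPM with siLRWD1-5, 67.4, 60.2 and 66.6 CPM with siLRWD1-6, against 24.4, 31.3 and 26.8 CPM with the scrambled siRNA. It was highest with siLRWD1-6 and lowest with siLRWD1-5, with no overlap. It rose 2.36-fold with siLRWD1-6 against the scrambled siRNA (log2 fold change 1.24, SE 0.107; edgeR adjusted p = 2.5e-05) and was 3.91-fold higher with siLRWD1-6 than with siLRWD1-5 (adjusted p = 2.53e-07). TXNIP, which binds and inhibits reduced thioredoxin, had 44.4, 36.1 and 38.9 CPM with siLRWD1-5, 23.1, 17.5 and 23.0 CPM with siLRWD1-6, against 37.1, 38.7 and 37.1 CPM with the scrambled siRNA. It fell with siLRWD1-6 against the scrambled siRNA (log2 fold change -0.83, SE 0.115; edgeR adjusted p = 0.000676), and the siLRWD1-5 and scrambled libraries overlapped.

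MSRB3, a methionine sulfoxide reductase, rose by a log2 fold change of 0.30 with siLRWD1-6 (adjusted p = 0.0166, edgeR). The call was lost without siLRWD1-6 replicates 1 or 2 or scrambled replicate 1, each left out in turn. RRM2, the small subunit of ribonucleotide reductase, which thioredoxin supplies with electrons, had 206, 216 and 209 CPM with siLRWD1-6 against 357, 227 and 386 CPM with the scrambled siRNA. The fold change on the log2 scale was -0.62 (SE 0.166, adjusted p = 0.0338, edgeR), and the call was lost in 7 of 15 other settings. With siLRWD1-5, 2 of the 16 partners were called higher and 6 lower, beside 18.5% and 20.3% of all genes; without scrambled replicate 2, 4 were higher and 7 lower, beside 24% and 25%. The largest values there were -0.83 for MAP3K5 (a kinase held inactive by thioredoxin), 0.80 for TXNRD3 (the third reductase), -0.73 for SESN2 and -0.59 for RRM1. Between the siRNAs, 3 partners were higher and 5 lower with siLRWD1-6 (22.4% and 20.9% of all genes), and with the replicate number as a block 5 were higher and 5 lower (24.4% and 23.1% of all genes).

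Of 14 other proteins with a thioredoxin fold, 3 rose (TXNDC11, TXNDC5 and TXNDC12) and 1 fell (TMX3) with siLRWD1-6, beside 8.81% and 7.78% of all genes, with a median of 0.03. Without scrambled replicate 2, 4 rose and 2 fell, beside 15.3% and 13.3%. TXNDC11, which works in the endoplasmic reticulum, had 67.9, 65.9 and 67.3 CPM with siLRWD1-5, 60.0, 49.2 and 58.2 CPM with siLRWD1-6, against 36.9, 38.7 and 42.1 CPM with the scrambled siRNA. Both LRWD1 siRNA groups lay above the scrambled libraries (log2 fold change 0.51 with siLRWD1-6, SE 0.0857; edgeR adjusted p = 0.0023; 0.77 with siLRWD1-5). TXNDC5, a disulfide isomerase of the same compartment, rose by 0.53 with siLRWD1-6 (adjusted p = 0.0123, edgeR) and had 0.76 with siLRWD1-5. TMX3, a membrane-bound member of that compartment, had a log2 fold change of -0.43 with siLRWD1-6 (adjusted p = 0.000919, edgeR) and -0.44 with siLRWD1-5. TXNDC12, also of the endoplasmic reticulum, had 0.25 with siLRWD1-6 (adjusted p = 0.0445, edgeR), a call lost in 7 of 15 other settings. With siLRWD1-5, 6 of the 14 were called higher and 1 lower, beside 18.5% and 20.3% of all genes, and the median was 0.22.

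Among 4 glutaredoxins, 1 was called with siLRWD1-6, beside 8.81% of all genes called higher and 7.78% lower. GLRX5, which serves iron-sulfur cluster assembly in mitochondria, rose (log2 fold change 0.25, SE 0.0608, edgeR adjusted p = 0.0151). That call was lost without siLRWD1-6 replicate 1 or 3. GLRX, the cytosolic glutaredoxin, had 25.6, 26.1 and 23.2 CPM with siLRWD1-5, 40.3, 42.7 and 42.7 CPM with siLRWD1-6, against 41.8, 57.1 and 41.0 CPM with the scrambled siRNA. The siLRWD1-5 libraries were below all others (log2 fold change -0.90, SE 0.12).

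Of 10 other peroxidases and superoxide dismutases, 7 were measured. With siLRWD1-6, GPX8, a peroxidase of the endoplasmic reticulum, rose, and the glutathione peroxidases GPX1 and GPX4 fell. Over all genes, 8.81% were called higher and 7.78% lower in that comparison. GPX8 had 107, 90.4 and 86.5 CPM with siLRWD1-5, 121, 116 and 103 CPM with siLRWD1-6, against 71.8, 64.3 and 73.2 CPM with the scrambled siRNA. Its log2 fold changes were 0.70 with siLRWD1-6 (SE 0.0937, adjusted p = 0.000531, edgeR) and 0.44 with siLRWD1-5. GPX1 (-0.31, adjusted p = 0.0315) and GPX4 (-0.24, adjusted p = 0.0319, edgeR) each lost their siLRWD1-6 call in 5 of 15 other settings, among them each siLRWD1-6 library left out in turn. With siLRWD1-5, 2 of the 7 were called higher and 1 lower, beside 18.5% and 20.3% of all genes. The lower call, GPX1, was lost in 11 of 15 other settings. The counts were 4 and 1 with the replicate number as a block (21.2% and 22.3% of all genes) and also without scrambled replicate 2 (24% and 25%).

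Among 11 measured sources of NADPH, which feeds the reductases, 2 passed the test with siLRWD1-6, MTHFD2 and ALDH1L2, and both rose, beside 8.81% of all genes. With scrambled replicate 2 left out, 2 rose and 3 fell, beside 15.3% and 13.3%. MTHFD2, a mitochondrial folate enzyme, had 132, 128 and 121 CPM with siLRWD1-5, 292, 292.5 and 248 CPM with siLRWD1-6, against 144, 134 and 150.0 CPM with the scrambled siRNA. The siLRWD1-6 libraries were well above all others (log2 fold change 0.96, SE 0.076; edgeR adjusted p = 1.41e-05). ALDH1L2, another mitochondrial folate enzyme, was at 1.22 to 6.99 CPM in all libraries; its siLRWD1-6 value (1.06, adjusted p = 0.0367, edgeR) lost its call in 5 of 15 other settings. With siLRWD1-5, 2 of the 11 were called higher and 3 lower, beside 18.5% and 20.3% of all genes. The counts were 2 and 5 with the replicate number as a block (21.2% and 22.3% of all genes) and 2 and 6 without scrambled replicate 2 (24% and 25%). ME1, the cytosolic malic enzyme, had the lowest siLRWD1-5 value of the list, -0.98.

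The list of 11 NRF2 genes holds NFE2L2 (NRF2 itself) and its inhibitor KEAP1 besides genes known to follow NRF2. Of the 11, 2 passed the test with siLRWD1-6, SLC7A11 and FTL, and both rose, beside 8.81% of all genes. Without scrambled replicate 2, 6 rose and 1 fell, beside 15.3% and 13.3%. SLC7A11, the cystine importer, had 173, 147.5 and 153 CPM with siLRWD1-5, 358.5, 349 and 334.5 CPM with siLRWD1-6, against 127, 203 and 140 CPM with the scrambled siRNA (log2 fold change 1.15 with siLRWD1-6, SE 0.153; edgeR adjusted p = 0.00111). FTL, the ferritin light chain, rose by 0.41 with siLRWD1-6 (adjusted p = 0.0116, edgeR), a call lost without siLRWD1-6 replicate 1. With siLRWD1-5, 4 were called, all lower (HMOX1, OSGIN1, NFE2L2 and GSR), beside 20.3% of all genes called lower. Leaving out scrambled replicate 2 gave 4 higher and 4 lower, beside 24% and 25%. HMOX1 had a log2 fold change of -1.70 with siLRWD1-5 (SE 0.4), and of -1.06 without scrambled replicate 2.

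**Figure D5:**
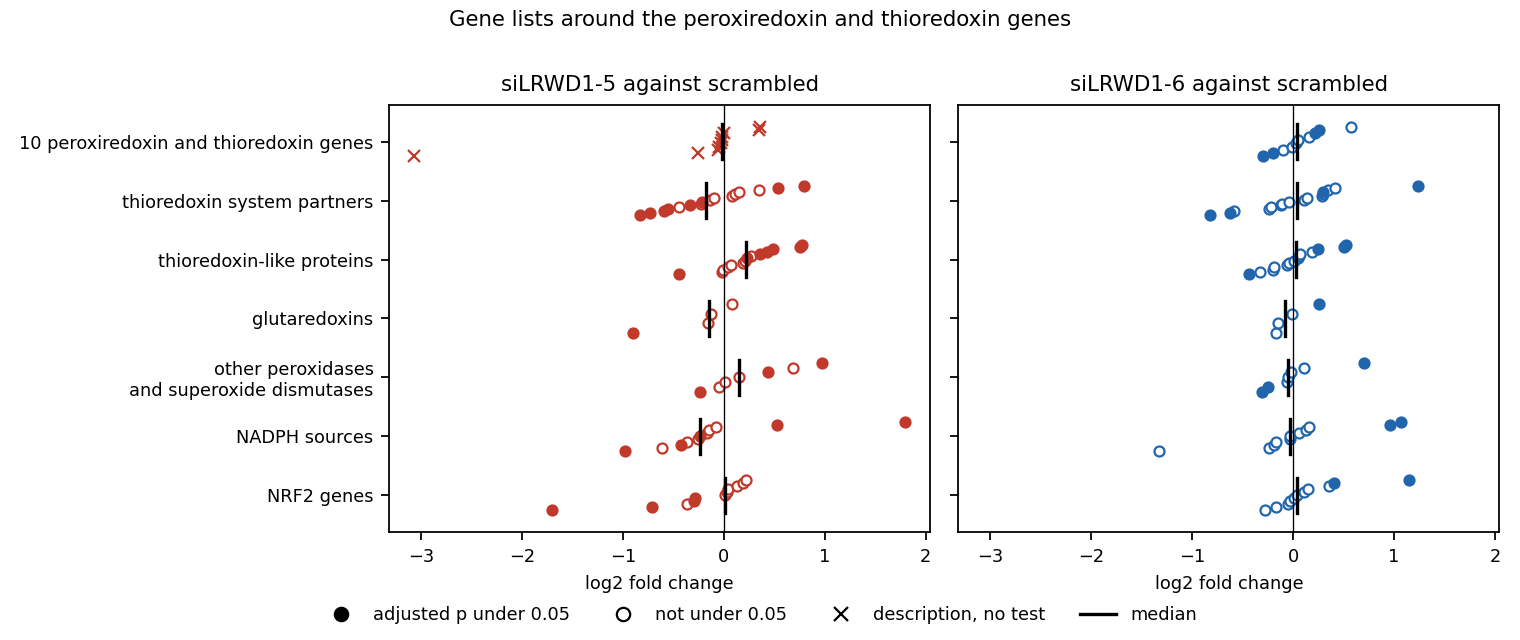
Log2 fold change of each measured gene of the 10 and of 6 lists (rows) with siLRWD1-5 (left) and siLRWD1-6 (right) against the scrambled siRNA; filled points had an edgeR adjusted p under 0.05, open points did not, crosses carry no test, and black bars are medians. PRDX3 is the cross at -3.07, and SESN2 the partner furthest right with siLRWD1-6, at 1.24.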

How the data were processed

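RNA-seq of 9 A673 libraries was used, 3 per group as labelled. The authors deposited 1 table of raw counts by gene symbol, made with bcl2fastq 1.8.4, TopHat2 2.0.10 and HTSeq 0.5.4p3 on hg19, per the submitters' processing notes; the sources used here do not give the gene annotation, counting mode or strand setting. The TruSeq RNA v2 kit named in the labels does not mark strand. Genes passing filterByExpr (13648) entered edgeR 4.0.16 (R 4.3.3) with TMM scaling (robust quasi-likelihood fit, group as the only term, all 9 libraries, Benjamini-Hochberg adjustment over all genes tested, threshold 0.05). SEs come from the F statistic. The fit was tested on simulated counts.

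Named were LRWD1, the 10 genes, up to 4 called genes of each list (smallest p with siLRWD1-6, largest fold change with siLRWD1-5), any other list gene with its values, and the 5 genes most like PRDX3 (mean of at least 5 CPM; log2 of CPM plus 0.5). The genes and lists were chosen with earlier results of these data known. The annotation used here (GENCODE v29, GRCh38) is of another build than the counts and served for names, lengths and the longest 3' UTR of each gene, taken in the strand of the mRNA; promoters came from RefSeq (GRCh38.p14). The labels give the replicate numbers as series shared by the groups, and every comparison was also fitted with the number as a block. Same-numbered libraries deviated together over all genes in siLRWD1-6 against siLRWD1-5 (r = 0.193, 0.247 and 0.106) and in siLRWD1-5 against scrambled (r = 0.281, 0.404 and 0.126).

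Alternatives were RLE size factors, no filter, a floor of 1 CPM in 3 libraries, limma-voom (limma 3.58.1), DESeq2 1.42.0, the replicate block, fits of only the groups compared, and each library left out; no scaling beyond library size and only the libraries numbered 1 and 3 were added after seeing the data. Word and motif searches used Python 3.11.15. Some results are not reported here.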

Additional observations from a re-analysis of the deposited data

How the results depend on the processing

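With siLRWD1-6 against the scrambled siRNA, the genes of the 10 called lower numbered 1 in place of 2 with RLE size factors, with no filter on low counts, with a floor of 1 CPM in 3 libraries, in DESeq2 and with only the groups compared. Those called higher numbered 1 with only the groups compared. With only the libraries numbered 1 and 3, a setting added after seeing the data, 5 were called higher and 1 lower, beside 1933 and 1646 of all genes. Over the 6 libraries left out in turn, the genes called higher ranged from 0 to 4 and those called lower from 0 to 2, beside 702 to 2115 and 546 to 1838 of all genes; with only the groups compared, 696 of all genes were lower. The highest counts came without scrambled replicate 2 and the lowest of all genes without siLRWD1-6 replicate 1.

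With siLRWD1-6 against siLRWD1-5, the count of the 9 genes called higher was 2 with RLE size factors, the 1 CPM filter, limma-voom, the replicate block, only the groups compared, and the libraries numbered 1 and 3. It was 0 with no filter, with no scaling beyond library size (added after seeing the data) and with each of the 6 libraries left out, a range of 0 to 0. The count called lower was 1 with only the groups compared and 3 with no scaling. The cause of these moves was not tested.

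Values near 0 changed sign. With siLRWD1-6 against the scrambled siRNA, PRDX1 had 0.00101 with the 1 CPM floor, 0.0627 with the libraries numbered 1 and 3, and -0.0774 to 0.0882 over the libraries left out, positive without siLRWD1-6 replicate 3 and without scrambled replicate 2. TXN had -0.0659 to 0.167, negative without scrambled replicates 1 and 3. With siLRWD1-6 against siLRWD1-5, PRDX1 had -0.0317 to 0.0601, negative without siLRWD1-6 replicate 2 and without siLRWD1-5 replicate 3, and with no scaling PRDX1 had -0.0562, PRDX6 -0.00435 and TXN2 -0.0117. The place of PRDX3 per length was 10 with siLRWD1-5 and 7 with the scrambled siRNA by the longest transcript.

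In siLRWD1-6 against the scrambled siRNA, same-numbered libraries, which share a series number in their labels, correlated at 0.312, 0.259 and 0.0304. With the replicate number as a block, 2 of the 10 genes were higher and 2 lower, as without it. Every siLRWD1-6 library correlated best with the scrambled library of its number, whereas scrambled replicate 3 correlated best with siLRWD1-6 replicate 1 (0.119). The block changed no call among the 10 genes other than TXNRD1 between the siRNAs. The PRDX3 ratio to its kin differed by -0.333 to -0.467 with a library left out and by -0.344 with summed kin. A log2 SE of 0.0559 to 0.204 among the 10 genes with siLRWD1-6 against the scrambled siRNA limits what could be told apart.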
